A study of Mus musculus with 16 samples.

Results

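The transcript profile of colonic injury was examined in mice whose labels read Tnfr2ko, by setting 4 mice given dextran sulfate sodium (DSS) beside 5 mice given water. These 9 mice were chosen by their titles out of 16 in the series. By their labels all 9 carried Vil1::Cre and floxed alleles of Tnfr2 (Tnfrsf1b, the gene of TNF receptor 2). The intended deletion was thus shared by both treatments and aimed at cells in which the villin promoter drives Cre, the epithelium. The data could not check it. The labels give 3% DSS for 6 days with dissection on day 12, while the study's methods give 3.5% DSS and an age of 8 weeks. Its results text places the uninjured mice at the day on which DSS began. In the injured colons, affected regions were picked out under a stereomicroscope. EpCAM+ cells of the distal colon were sorted, and polyA RNA was sequenced. The DSS mice were all female, 1 from cage c and 3 from cage d. The water mice were 2 males from cage a and 3 females from cage b. No cage held both treatments, and the abundance tables of the 2 treatments were normalized separately, so treatment, cage and table cannot be told apart and no test between the treatments was run. The other 7 mice, 3 given DSS and 4 given water, were floxed controls without Cre.

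The colonic epithelium is renewed from stem cells at the crypt base, whose progeny become absorptive colonocytes or secretory cells that make mucus, hormones and defence proteins. DSS is toxic to the colonic lining, and ulceration is followed by repair in which surviving epithelium closes the wound and rebuilds crypts. In an inflamed gut, the epithelium is known to release C-type lectins, calprotectin and other antimicrobial proteins, while mucus and transport functions are often reduced.

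Levels are TPM as deposited, that is, transcript abundances scaled for length and for the total of a library. They were summed per gene and divided by 1 factor per mouse that sets the typical gene equal in all 16 mice. Differences are DSS minus water on the log2(rescaled TPM + 1) scale, which understates the difference of low genes. A gene was counted as higher where all 4 DSS mice lay above all 5 water mice, and as lower where all 4 lay below. Of 11138 genes with a mean of at least 1 rescaled TPM over the 9 mice, 1935 (17.4%) were higher and 2019 (18.1%) were lower after DSS. With a difference of at least 1 log2 unit as well, 415 genes (3.73%) were higher and 1010 (9.07%) were lower. The split between higher and lower depended on the scaling. It was 48.9% higher among the genes without overlap as reported, 62.4% with factors from 12 epithelial genes, 66.1% by ranks within each mouse and 75.7% in the values as deposited, where the median over all genes sat at 0.31 in place of 0.00. With the cut at 1 log2 unit, the epithelial factors gave 785 higher and 809 lower. Quantile normalization gave 802 and 810, and the values as deposited 1173 and 725. Across genes, Spearman's rho ran from 0.933 to 0.940 between DSS mice, from 0.908 to 0.920 between water mice and from 0.859 to 0.887 between a DSS and a water mouse. The median difference of a gene list below is therefore to be read against 0.00, the median over all genes tested. The counts of a list are likewise to be read against 17.4% and 18.1%. Counts under another scaling are to be read against those over all genes under that scaling.

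The transcript of the targeted receptor overlapped between the labelled knockout mice and the controls. Tnfrsf1b stood at 22.7, 11.3, 12.9 and 15.1 rescaled TPM in the DSS mice and at 12.2, 11.04, 9.82, 16.4 and 14.5 in the water mice. The groups overlapped, with a difference of 0.24 ± 0.24 (SE, n = 4 and 5). The controls stood at 19.2, 12.3 and 10.8 after DSS and at 14.5, 16.8, 12.2 and 17 with water, in the same range. A total over whole transcripts cannot show the loss of a single exon, so the values do not check the labels, and the mice are called labelled knockout here. Tnfrsf1a, which encodes the other TNF receptor, overlapped as well, at 26.7 ± 3.61 after DSS against 33.4 ± 4.82 with water (SD, n = 4 and 5). Tnf itself averaged 36.8 ± 18.1 after DSS against 11.4 ± 4.53 with water, and the lowest DSS mouse, at 16.5, lay just below the highest water mouse, at 17.3.

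Water libraries held far more leukocyte RNA than DSS libraries, although all were sorted for EpCAM. Immunoglobulin genes took 18.1% to 47.4% of the summed TPM in the 5 water mice and 0.0593% to 2.26% in the 4 DSS mice. All 7 tested B and plasma cell markers and all 10 pan-leukocyte markers were lower after DSS. Over all genes 18.1% were lower and 17.4% higher. The summed pan-leukocyte level ran from 27.6 to 45.5 rescaled TPM in the DSS mice and from 329 to 735 in the water mice. Of the macrophage and dendritic cell markers, 14 of 15 were lower, and their sum ran from 27.7 to 55.8 against 1386 to 3115. T cell markers were lower in 4 of 5, and 13 further markers of that list lay below the minimum level. Of the 18, 3 were listed at 0 in every DSS mouse and 2 in every water mouse. Fibroblast markers summed to 128 to 574 against 378 to 1081 and endothelial markers to 22.5 to 48.6 against 21.1 to 62.8, both with overlap. In bulk libraries, fewer cells of a type and less RNA per cell cannot be told apart. Epithelial markers were present in every mouse. Of the 12 epithelial identity genes 4 (33.3%) were higher and 6 (50%) lower, with a median of -0.34. Their sum ran from 6298 to 7802 against 8204 to 9978. Ranks and quantile normalization instead gave 6 higher and 0 lower. Epcam was higher in all 4 DSS mice, at 788 ± 33.3 against 670 ± 37.0, while the keratin Krt8 was lower, at 1588 ± 220 against 2485 ± 305. For Epcam 1 transcript is listed and 4 others are annotated. No stretch of 31 bases is specific to the listed one, so isoform shift and gene change cannot be told apart. The lower call of Krt8 was lost in the values as deposited and by ranks, and quantile normalization turned it to 0.71 higher. Mitochondrially encoded genes took 29.7% to 41.8% of the summed TPM after DSS and 10.4% to 20.6% with water.

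**Figure D1:**
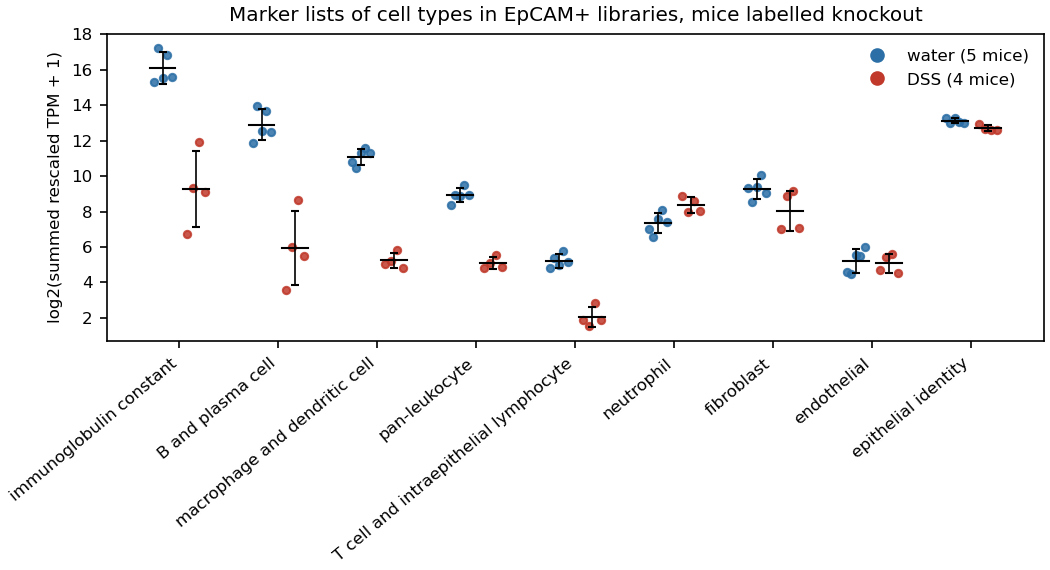
Summed level of each marker list per mouse on the log2(summed rescaled TPM + 1) scale, with water mice in blue and DSS mice in red. Bars give the mean and error bars the SD of 5 and 4 mice. The DSS mice lie below every water mouse for the 5 lymphoid, myeloid and pan-leukocyte lists at the left, and the groups overlap for fibroblast and endothelial lists.

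On the log2(rescaled TPM + 1) scale, the 5 named genes farthest above the water level encode defence proteins of the gut. Their promoters are shown because of this rank, and a shared control of the genes was not tested. Each window runs from 250 bases before to 50 bases after the RefSeq start in GRCm38.p6, 5′ to 3′ on the gene's strand. Capitals mark the letters TATAAA, those of the classical TATA box, and TTCNNNGAA, a motif of STAT type, searched on both strands. No match of one overlapped a match of the other.
Reg3b (chr6:78370635-78370934, plus strand): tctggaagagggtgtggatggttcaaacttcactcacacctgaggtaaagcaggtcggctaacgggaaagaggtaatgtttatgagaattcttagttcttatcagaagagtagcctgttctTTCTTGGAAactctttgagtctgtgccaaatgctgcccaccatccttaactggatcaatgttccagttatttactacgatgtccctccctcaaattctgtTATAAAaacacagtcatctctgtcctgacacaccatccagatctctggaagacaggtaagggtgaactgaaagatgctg
Reg3g (chr6:78468825-78469124, minus strand): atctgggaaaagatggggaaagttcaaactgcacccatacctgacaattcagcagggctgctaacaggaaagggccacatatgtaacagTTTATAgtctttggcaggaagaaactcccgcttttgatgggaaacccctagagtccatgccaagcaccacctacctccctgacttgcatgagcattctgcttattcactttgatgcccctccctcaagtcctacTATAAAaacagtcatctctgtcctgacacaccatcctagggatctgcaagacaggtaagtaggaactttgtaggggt
S100a9 (chr3:90695672-90695971, minus strand): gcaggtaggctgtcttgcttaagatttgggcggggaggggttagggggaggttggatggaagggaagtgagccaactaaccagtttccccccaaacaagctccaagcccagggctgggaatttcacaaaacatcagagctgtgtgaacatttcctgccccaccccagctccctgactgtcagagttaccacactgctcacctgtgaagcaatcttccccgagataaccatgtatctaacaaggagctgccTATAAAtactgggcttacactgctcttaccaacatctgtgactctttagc
Saa3 (chr7:46715627-46715926, minus strand): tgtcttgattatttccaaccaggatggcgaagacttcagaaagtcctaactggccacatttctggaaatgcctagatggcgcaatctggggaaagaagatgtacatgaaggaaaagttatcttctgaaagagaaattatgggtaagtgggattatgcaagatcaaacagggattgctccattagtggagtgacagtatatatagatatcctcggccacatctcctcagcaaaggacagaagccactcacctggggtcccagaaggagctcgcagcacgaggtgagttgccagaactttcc
S100a8 (chr3:90668821-90669120, plus strand): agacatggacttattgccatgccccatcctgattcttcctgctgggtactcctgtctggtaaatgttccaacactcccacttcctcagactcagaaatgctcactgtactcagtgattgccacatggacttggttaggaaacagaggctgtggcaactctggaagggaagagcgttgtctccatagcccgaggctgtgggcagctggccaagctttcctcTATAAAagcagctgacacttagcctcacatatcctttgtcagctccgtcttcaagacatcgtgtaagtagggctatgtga
The TATA letters stood in 4 of these 5 windows, against 9.20% of the 8616 tested genes with a window in the table, 14.9% of 323 genes higher by at least 1 log2 unit and 12.3% of 713 genes lower by as much. The match in S100a9 begins at the annotated start itself, not upstream of it as in the other 3, where the Reg3b and S100a8 matches begin at -29 and -30. The STAT letters stood only in the Reg3b window, and in 8.00% of the 8616 genes. Reg3b and Reg3g share a run of 29 bases just downstream of the TATA letters, beginning at -20 in both. Whether reads of the 2 transcripts were shared was not tested.

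Reg3b and Reg3g, neighbouring genes on chromosome 6 that encode secreted C-type lectins active against bacteria, led the list. Reg3b (chromosome 6, 78370657 to 78373466, GRCm38) stood at 1479, 291, 477 and 1178 rescaled TPM in DSS mice 1 to 4 and was listed at 0 in all 5 water mice. Reg3g (chromosome 6, 78466269 to 78468872) stood at 419, 140, 166 and 430 against 2.44, 1.66, 0.654, 1.58 and 0. Both genes were highest in DSS mice 1 and 4 and lowest in DSS mice 2 and 3, and no DSS mouse came near a water mouse. The difference was 6.94 ± 0.53 (SE) for Reg3g.

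The calprotectin genes S100a8 and S100a9, which encode a metal-binding dimer abundant in neutrophils and inducible in epithelium, were also higher. S100a8 (chromosome 3, 90668978 to 90670035) stood at 197, 94.2, 170 and 96.9 in DSS mice and at 1.62, 3.31, 3.91, 3.15 and 2.71 in water mice, a difference of 5.11 ± 0.31. S100a9 (chromosome 3, 90692632 to 90695721) stood at 208, 108, 169 and 123 against 0, 0, 1.20, 2.89 and 2.48. The 2 genes kept a similar order over the DSS mice, with mice 1 and 3 above mice 2 and 4. The other 7 genes of the neutrophil marker list did not go one way. Il1b, an inflammatory cytokine, was lower after DSS at 27.5 ± 3.39 against 152 ± 60.1. The receptor gene Csf3r overlapped at 1.07 to 2.33 against 1.57 to 4.70 with water, and Retnlg, a resistin-like protein, overlapped at 9.60 to 28.7 against 2.74 to 21.02. The other 4 lay below the minimum level. Of these, the chemokine receptor gene Cxcr2 stood at 1.04 to 1.75 against 0 to 0.456, the collagenase gene Mmp8 at 0.324 to 2.92 against a listed 0 in every water mouse, and Trem1, a myeloid receptor, at 0.657 to 1.08 against 0 to 0.536. These 3 were above the water level in every DSS mouse, and Ngp, a granule protein, stood at 0 to 1.86 against a listed 0. The summed list, calprotectin included, ran from 246 to 474 after DSS and from 92.8 to 268 with water. The part of neutrophil RNA in the calprotectin values was not tested.

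Among the remaining defence proteins, Saa3, an acute phase protein, stood at 28.6, 49.8, 159 and 41.0 after DSS, and Lcn2, which binds bacterial siderophores, at 16.7, 7.99, 9.30 and 6.83. Both were listed at 0 in all 5 water mice. For each, the tables list 1 transcript, and 4.29% of the 31-base windows of the Lcn2 transcript and 5.33% of those of Saa3 are absent from the gene's other annotated transcripts, against 12.8% for Reg3b and 14.2% for Reg3g. A listed 0 of these genes is therefore that of 1 isoform. Wfdc18, of the whey acidic protein family, averaged 64.4 ± 11.2 against 6.61 ± 4.36. Dmbt1, a scavenger receptor protein secreted into mucus, averaged 174 ± 55.9 against 36.3 ± 15.1. Nox1, the NADPH oxidase of colonic epithelium, stood at 83.0 to 109 after DSS and 15.01 to 31.1 with water, a difference of 1.97 ± 0.20. The list of antimicrobial and acute phase proteins was split, with 8 of 21 tested members (38.1%) higher, 6 (28.6%) lower and a median of 0.00. Over all genes the shares were 17.4% and 18.1%. The balance of the list moved with the scaling. Quantile normalization gave 10 higher, 4 lower and a median of 0.98, and the values as deposited 8 higher, 5 lower and 0.37. Ang4, an antimicrobial angiogenin of secretory cells, was the lowest, at 10.2, 17.9, 12.5 and 3.02 against 804, 853, 240, 229 and 641.

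**Figure D2:**
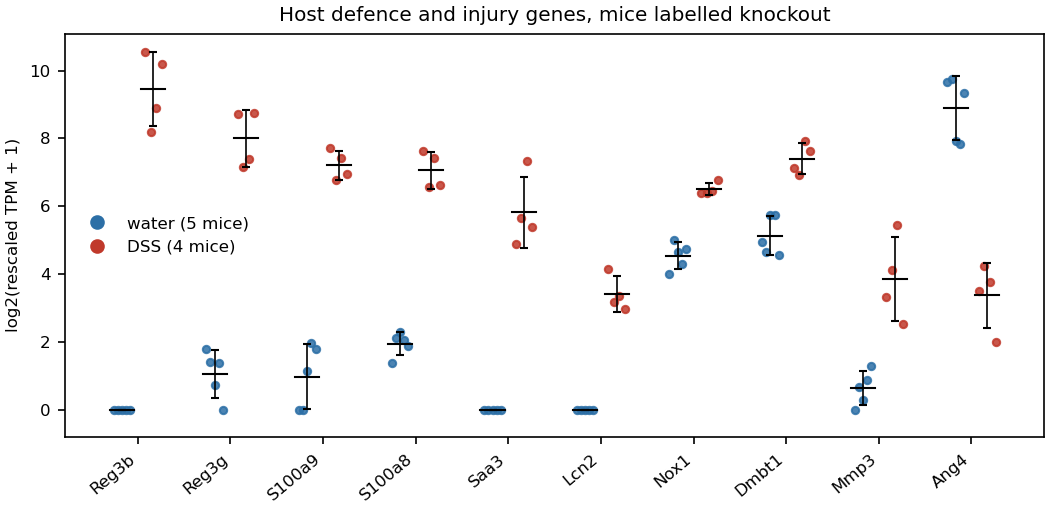
Levels of 10 defence and injury genes per mouse on the log2(rescaled TPM + 1) scale, water in blue and DSS in red, with mean and SD of 5 and 4 mice. The DSS mice lie above every water mouse for 9 genes, among them Reg3b, Saa3 and Lcn2 whose water mice are all listed at 0, and below every water mouse for Ang4.

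Secretory genes were lower after DSS. In the study's goblet cell list 11 of 17 tested members (64.7%) were lower and 0 were higher, with a median of -1.93. In its deep secretory list 29 of 48 (60.4%) were lower and 2 (4.17%) higher, with a median of -1.32. Over all genes the shares were 18.1% and 17.4%. Quantile normalization gave 10 lower, 1 higher and -1.335 for the first list, and 25 lower, 4 higher and -0.90 for the second. Mptx1, a pentraxin of deep secretory cells, had the largest difference of the lower genes given here. It stood at 173, 5.01, 50.7 and 13.1 rescaled TPM in the DSS mice and at 9247, 12740, 6285, 5107 and 11080 in the water mice, a difference of -8.15 ± 1.09. The lowest water mouse was far above the highest DSS mouse, mouse 1 of cage c.

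Mucus genes followed with smaller differences. Clca1, a protease of goblet mucus, was 22.9-fold lower by group means, at 53.3 ± 20.2 against 1222 ± 270. Fcgbp, a protein that binds the mucin network, was 9.36-fold lower. Muc2 (chromosome 7, 141690340 to 141754693), the gel-forming mucin of the colon, stood at 24.7, 39.2, 34.1 and 16 against 99.8, 115, 94.1, 174 and 95.0, without overlap. Tff3, the trefoil peptide of goblet cells, was 5.25-fold lower, at 223 ± 33.4 against 1167 ± 350.

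Reg4, a marker of deep crypt secretory cells, stood at 189, 82.0, 182 and 72.5 after DSS against 1264, 1366, 1020, 526 and 809 with water. Atoh1, the transcription factor that specifies the secretory lineage, was lower by 1.79 ± 0.22 on the log2 scale. Best2, a chloride and bicarbonate channel of goblet cells, averaged 4.89 ± 5.02 against 27.9 ± 8.78, with overlap in the values as deposited. Of the 15 tested goblet mucus genes, 9 (60%) were lower and 1 (6.67%) was higher, against 18.1% and 17.4% over all genes. The higher one was Galnt12, which starts O-glycan chains, at 40.4 ± 3.44 against 23.2 ± 8.69. Ranks and quantile normalization gave 6 lower and 3 higher, and the values as deposited 8 and 3. The deep secretory gene Slc12a2, the basolateral sodium, potassium and chloride cotransporter, was 2.46-fold higher. Xbp1, a regulator of the secretory machinery that plasma cells also express, was lower at 110 ± 13.1 against 294 ± 112, beside the immunoglobulin shares above, whose part in it was not tested.

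Endocrine genes did not share that direction. Of 34 tested genes of the study's enteroendocrine list, 6 were higher and 3 lower, shares of 17.6% and 8.82% against 17.4% and 18.1% over all genes. Chgb, a granin of hormone granules, stood at 123, 319, 249 and 213 after DSS against 76.3 to 114 with water. None of the 4 tested tuft cell genes was separated.

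Absorptive genes were lower as well. In the study's absorptive list 29 of 49 tested members (59.2%) were lower and 2 (4.08%) higher, with a median of -0.97. Over all genes the shares were 18.1% and 17.4%. The values as deposited gave 20 lower, 4 higher and a median of -0.65, and ranks 21 lower and 5 higher. Tgm3, a transglutaminase, stood at 17.8, 19.3, 16.6 and 12.4 against 122, 142, 142, 199 and 143, a difference of -3.10 ± 0.17. Fxyd4, a modulator of the sodium pump, averaged 2.87 ± 1.70 against 34.8 ± 14.3. Eno3, a muscle type enolase, was 7.05-fold lower and Atp12a, the colonic proton pump, 6.90-fold lower. Car2, a carbonic anhydrase of surface colonocytes, was lower by 0.71 ± 0.12 on the log2 scale, a direction that quantile normalization turned to 0.12 higher with overlap. Its lower call was also lost in the values as deposited and by ranks. Clca4b, of the chloride channel accessory family, went the other way, at 103, 50.1, 25.8 and 58.7 against 6.02, 1.75, 4.39, 2.47 and 0.926. Hoxb13, a homeobox gene of the distal colon, was 4.10-fold lower, at 34.8 ± 10.4 against 143 ± 22.8.

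Proliferation genes were higher or overlapped, and none was lower. Of 26 tested mitosis genes 9 (34.6%) were higher, with a median of 0.49, against 17.4% over all genes. Of 31 DNA replication genes 9 (29.0%) were higher, with a median of 0.49. Mki67 (chromosome 7, 135689784 to 135716361), which marks cycling cells, stood at 46.1, 44.0, 49.2 and 59.9 rescaled TPM after DSS and at 18.8, 19.3, 18.9, 23.96 and 21.96 with water. The lowest DSS mouse exceeded the highest water mouse, and the difference was 1.23 ± 0.12. Cenpf and Cenpe, kinetochore proteins, were 3.18-fold and 2.34-fold higher. Orc1, of the origin recognition complex, averaged 6.94 ± 0.248 against 2.59 ± 0.274, and Mcm10, a replication initiation factor, 6.73 ± 0.341 against 2.80 ± 0.674. The direction of both lists was the same under each scaling tried, with medians between 0.48 and 0.83, but the counts were not. By ranks 11 mitosis and 14 replication genes were higher, and in the values as deposited 17 and 18. Over all genes the count higher also rose, from 1935 to 2822 by ranks and to 3526 in the values as deposited.

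Some stem cell genes were higher in the same libraries. Of 18 tested crypt stem cell and Wnt target genes 6 (33.3%) were higher, against 17.4% over all genes, 0 were lower and 12 overlapped, with a median of 0.19. Other scalings gave 9 higher by ranks, 9 with a median of 0.46 under quantile normalization and 10 with a median of 0.51 in the values as deposited. Under these scalings the count higher over all genes rose too, from 1935 to 2822, 2844 and 3526. Lgr5 (chromosome 10, 115450311 to 115587780), the receptor that marks crypt base stem cells, stood at 5.56, 8.67, 5.97 and 7.72 after DSS against 1.32, 0.878, 2.44, 1.99 and 2.31. Prom1, a membrane protein of stem and progenitor cells, stood at 75.5 to 95.0 against 13.7 to 23.7, a difference of 2.22 ± 0.17. Myc did not pass the minimum level, its listed transcript being at 0 in every DSS mouse and at no more than 0.136 in a water mouse. Myc has 7 other annotated transcripts, and no window is specific to the listed one, so these zeros do not give the level of the gene. The study's progenitor 1 list had 16 of 48 members (33.3%) higher and 4 (8.33%) lower, against 17.4% and 18.1% over all genes. Ranks gave 20 and 2, and the values as deposited 27 and 2. Its progenitor 2 list had 11 (22%) higher and 12 (24%) lower of 50, near the shares over all genes, against 16 and 4 by ranks. Its progenitor 3 list had 6 (12%) higher and 23 (46%) lower of 50, a balance that ranks within each mouse turned to 15 higher and 14 lower.

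The epidermal growth factor (EGF) family drives epithelial growth and wound closure. Of its 11 tested genes 7 (63.6%) were higher and 0 lower, with a median of 0.69. Over all genes the shares were 17.4% and 18.1%. The other 4 of the 15 listed genes lay below the minimum level. Egfr, the receptor, averaged 4.96 ± 0.218 against 2.64 ± 0.654, and its ligand Btc 4.00 ± 0.541 against 1.84 ± 0.713. Lrig1, which restrains EGF receptors and marks stem cells, averaged 42.9 ± 1.81 against 22.01 ± 12.2, with 1 low water mouse at 2.86. In the controls the same 11 genes had 0 higher and 1 lower, with a median of 0.19. Over all genes the control shares were 10.7% higher and 13.8% lower. The difference between the 2 sets of mice was not tested.

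**Figure D3:**
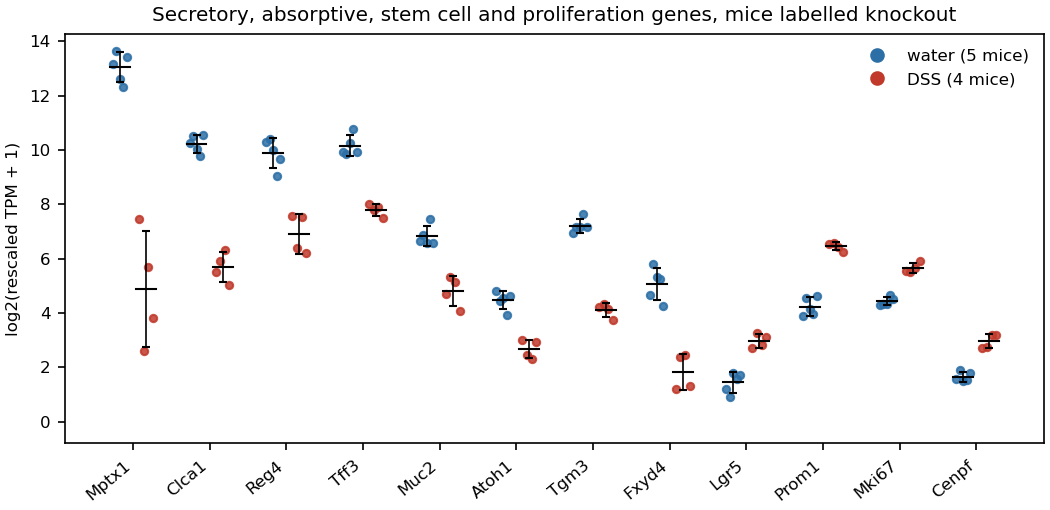
Levels of 12 secretory, absorptive, stem cell and proliferation genes per mouse on the log2(rescaled TPM + 1) scale, water in blue and DSS in red, with mean and SD of 5 and 4 mice. The 8 genes from Mptx1 to Fxyd4 lie lower in every DSS mouse, and Lgr5, Prom1, Mki67 and Cenpf lie higher in every DSS mouse.

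Genes of wound repair were mixed. Ly6a (chromosome 15, 74994877 to 74998031), a surface protein of regenerating epithelium, stood at 415, 236, 222 and 234 after DSS and at 143, 114, 189, 218 and 126 with water. The groups did not overlap, but 222 and 218 nearly touched. Ly6d, a relative of Ly6a, was lower, at 5.23, 4.19, 8.03 and 7.46 against 31.6, 79.4, 89.9, 95.5 and 59.9. Clu, a marker of revival stem cells, overlapped at 6.15 ± 2.14 against 5.52 ± 3.11. Of 26 tested regeneration and YAP target genes 5 were higher and 5 lower, 19.2% each and near the 17.4% and 18.1% over all genes, against 7 and 3 by ranks within each mouse. Of 223 genes of the study's fetal intestine list 35 (15.7%) were higher and 47 (21.1%) lower, also near the shares over all genes. Other scalings turned that balance, to 48 higher and 37 lower by ranks, 59 and 32 in the values as deposited, and 44 and 38 with factors from the epithelial genes. The lower members of this list include the leukocyte genes Cd68 and Laptm5, at -4.70 and -4.63.

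Some matrix and adhesion genes lay far above the water level, while the lists were mixed on the reported scale. Of 12 tested laminin-332 and integrin genes 3 (25.0%) were higher and 2 (16.7%) lower, among them the integrin chain Itgb5 at -1.18. Over all genes the shares were 17.4% and 18.1%. Of 13 matrix metalloproteinases and inhibitors 2 were higher and 2 lower, 15.4% each and near the shares over all genes. The gelatinase Mmp9 stood at -2.20, and the median was -0.19. The values as deposited gave 5 higher and 1 lower in both lists and turned the second median to 0.18, and ranks gave 5 and 1 for laminin-332 and integrins and 4 and 2 for the proteases. Itga2, a collagen-binding integrin chain, stood at 18.0, 18.96, 19.1 and 19.9 against 3.51, 3.85, 3.73, 4.51 and 5.74. Anxa1, a mediator of epithelial repair, was 2.34-fold higher. Mmp3, a matrix metalloproteinase, stood at 9.01, 16.2, 42.2 and 4.81 against 0, 0.594, 0.234, 0.848 and 1.46, and Mmp10 at 3.84, 8.14, 27.8 and 4.88 against 0 to 2.08. DSS mouse 3 was highest for both proteases, and it also had the highest summed fibroblast level among the DSS mice, 574, against 470, 128 and 133 in DSS mice 2, 1 and 4. Over the whole fibroblast list, 0 of 12 markers were higher and 1 was lower. The part of fibroblast RNA in the protease values was not tested. Krt14, a keratin of basal squamous cells, averaged 3.11 ± 2.10 against 0.319 ± 0.437.

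Class II antigen presentation genes were lower. All 10 tested genes of major histocompatibility complex (MHC) class II presentation were lower, by 1.56 to 6.82 on the log2 scale. Over all genes 18.1% were lower. Cd74, the invariant chain, stood at 3.72, 3.34, 5.35 and 1.62 against 386, 354, 506, 675 and 568. H2-Ab1 and H2-Aa, the class II chains, averaged 5.12 ± 0.759 against 625 ± 139 and 8.85 ± 2.99 against 778 ± 190. Macrophage genes had differences of the same size. The complement gene C1qa stood at 1.51, 2.00, 2.80 and 1.501 against 262, 210, 382, 467 and 391, and C1qb and C1qc were 147-fold and 163-fold lower. Csf1r, Lyz2, Pf4 and Retnla, expressed by macrophages, were lower by 5.67, 5.57, 6.33 and 7.08 on the log2 scale, Retnla being listed at 0 in every DSS mouse. Jchain and Mzb1 of plasma cells were 70.3-fold and 55.3-fold lower by group means, and Ly6c2, a leukocyte surface protein, 23.1-fold lower. DSS mouse 3 carried much of the first 2 DSS means. Jchain stood at 9.22, 59.0, 373 and 41.7 and Mzb1 at 0.449, 1.53, 12.2 and 1.19 in DSS mice 1 to 4. The part of leukocyte RNA in the class II values was not tested.

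Class I presentation was lower to a smaller extent, with 10 of 17 tested genes (58.8%) lower, 3 (17.6%) higher and a median of -1.08. Over all genes the shares were 18.1% and 17.4%. The immunoproteasome subunits Psmb8 and Psmb9 averaged 2.87 ± 1.72 against 24.8 ± 9.63 and 2.93 ± 1.18 against 13.8 ± 2.51. Psme2, a proteasome activator subunit, was higher at 60.0 ± 6.96 against 29.9 ± 7.87. Leukocytes express class I genes as well, and the part of the leukocyte marker levels given above in these values was not tested.

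Cytokine and TNF signalling genes had a balance that depended on the scaling. Of 30 tested genes of TNF and NF-kB signalling 7 were lower and 0 higher, with a median of -0.21. The share lower, 23.3%, is near the 18.1% over all genes. In the values as deposited 4 were lower and 3 higher with a median of 0.12, and quantile normalization gave 6 lower, 1 higher and 0.02. Of 28 cytokine receptor and STAT3 pathway genes 5 (17.9%) were lower, as over all genes, and 2 (7.14%) higher, the kinase Jak2 at 0.43 among them, against 2 lower and 4 higher by ranks. With other cell types and immunoglobulins left out of the scaling, Jak2 lost its separation and 1 gene was higher. Nfkbie, an inhibitor of NF-kB, averaged 2.42 ± 0.682 against 14.4 ± 4.06, and the adaptor Traf1 1.28 ± 0.508 against 6.81 ± 2.32. Socs3, a feedback inhibitor of cytokine receptors, averaged 34.3 ± 6.97 against 98.1 ± 33.7, and lost its separation under ranks, quantile normalization and in the values as deposited. Of 20 tested chemokines 6 (30%) were lower and 1 (5%) higher, against 18.1% and 17.4% over all genes. In the values as deposited 3 of 21 were lower and 2 higher. Ccl8, Ccl7 and Ccl2, which attract monocytes, were 33.3-fold, 7.04-fold and 7.45-fold lower by group means. These folds lean on DSS mouse 3, the highest DSS mouse at 12.6, 35.0 and 37.5. The other DSS mice stood at 2.25 to 5.78, 5.36 to 22.2 and 3.42 to 11.1. For Ccl2 the highest DSS mouse, at 37.5, nearly touched the lowest water mouse, at 40.3, and the groups overlapped in the values as deposited, with epithelial factors, under quantile normalization and by ranks. Cxcl5, which attracts neutrophils, was higher at 11.2, 8.38, 24.8 and 11.2 against 0.000434 to 3.32. Tgfb1, a cytokine made by many cell types, stood at 3.01, 2.91, 4.18 and 2.48 against 17.7, 14.5, 19.6, 30.7 and 21.4. The leukocyte marker levels given above differed in the same direction as the lower genes, and their part was not tested.

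Lists of ribosomal and respiratory genes changed direction with the scaling. Of 76 tested cytosolic ribosomal protein genes 30 (39.5%) were lower and 1 (1.32%) higher, with a median of -0.17. Over all genes the shares were 18.1% and 17.4%. Ranks within each mouse instead gave 50 higher and 1 lower. Of 74 nuclear oxidative phosphorylation genes 23 (31.1%) were lower and 2 (2.70%) higher, against 6 lower and 30 higher by ranks. The mitochondrially encoded genes were higher under each scaling, 7 of 13 (53.85%) without overlap, with a median of 0.79. For these, mt-Nd4, mt-Nd5 and mt-Nd6, subunits of complex I, were 2.03-fold, 2.13-fold and 2.75-fold higher. Whether RNA quality differed between the treatments was not tested.

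Glutathione and stress genes were also split. Of 20 tested NRF2 and glutathione genes 8 (40%) were higher and 4 (20%) lower, with a median of 0.23. Over all genes the shares were 17.4% and 18.1%. Under other scalings the higher share grew. Quantile normalization gave 13 higher and 3 lower with a median of 0.79, and the values as deposited 14 and 2. Slc7a11, the cystine importer, stood at 3.06, 2.70, 3.55 and 3.83 against 0.571 to 0.761, a difference of 1.35 ± 0.09. Gclm, a subunit of the enzyme that starts glutathione synthesis, and Me1, malic enzyme, were 2.15-fold and 3.61-fold higher. Hmox1, heme oxygenase, which macrophages express strongly, was lower at 6.96 ± 1.28 against 57.5 ± 31.8. Hspd1, a mitochondrial chaperone, was 2.35-fold higher. Of 16 heat shock genes 4 (25.0%) were higher, against 17.4% over all genes, and 0 lower, with a median of 0.44 that quantile normalization moved to 1.00 with 7 higher. Idi1, of sterol synthesis, averaged 82.5 ± 8.76 against 39.9 ± 14.4, with 3 of 24 cholesterol synthesis genes higher and 0 lower. Those 12.5% lie below the 17.4% over all genes, and other scalings gave up to 9 higher. Of 22 immediate early genes, 8 (36.4%) were lower and 1 (4.55%) was higher, against 18.1% and 17.4% over all genes. Ranks and quantile normalization instead gave 4 lower and 5 higher, with a quantile median of 0.27. The values as deposited gave 5 lower and 2 higher, with a median of 0.03. Junb, an AP-1 subunit, was 3.13-fold lower with overlap under ranks and quantile normalization, and Klf6 was 1.60-fold higher. Cldn2, a pore-forming claudin of the tight junction, was 1.80-fold higher, at 72.3 to 101 against 33.6 to 54.0.

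**Figure D4:**
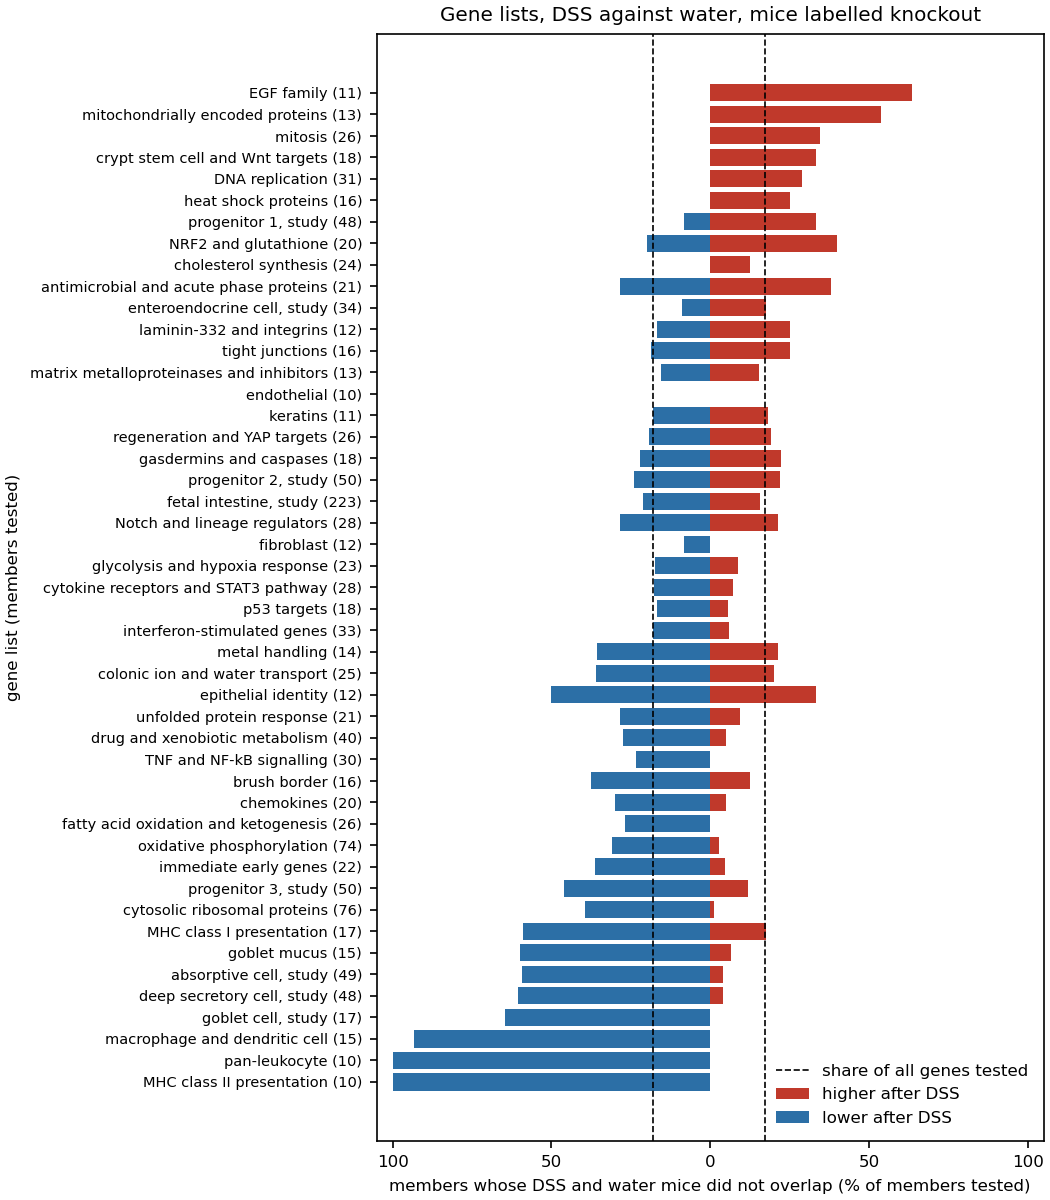
Share of the tested members of each gene list that were higher (red, to the right) or lower (blue, to the left) after DSS without overlap between 4 DSS and 5 water mice. Lists with at least 10 tested members are shown, and dashed lines give the 17.4% and 18.1% over all genes. EGF family genes extend farthest to the right, and MHC class II and pan-leukocyte genes fill the bar to the left.

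Some of the largest differences belonged to genes whose listed transcripts are one isoform of several, so that a shift between isoforms and a change of the gene cannot be told apart. Taf9, a general transcription factor, stood at 8.91 to 41.1 after DSS and at no more than 0.00803 with water, and Dhx9, an RNA helicase, at 7.62 to 15.5 against no more than 0.00728. Both are used by nearly every cell. Ceacam1, an adhesion molecule, ran from 56.0 to 92.6 against 0 to 34.1, and Muc3a, a membrane mucin, from 69.2 to 78.9 against 1.06 to 25.7. Ecscr, an endothelial gene, stood at 7.61 to 10.7 and was listed at 0 in every water mouse, while 0 of 10 tested endothelial markers were separated. Itga6 and Cd44 reached 0.000117 and 0 in single water mice and 17.7 and 6.13 in others. Of the 31-base windows in the listed transcripts, none was specific to them for Dhx9 and Ceacam1, and 0.54% for Muc3a. Myl7, a myosin light chain with a single annotated transcript, stood at 13.99 to 23.1 against 0 to 3.57.

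The floxed controls gave the same contrast in other animals of the same tables and cages. Of the genes tested, 10.7% were higher and 13.8% lower in 3 DSS against 4 water controls. Of the 1935 genes higher in the labelled knockout mice, 699 were also higher in controls, 36.1% of the first list and 58.7% of the 1190 in the second. Of the 2019 lower genes, 950 were also lower, 47.0% of the first and 61.6% of the 1542 in the second. The opposite direction was seen for 2 and 1 genes. Among the named genes, Reg3b differed by 9.46 in the labelled knockout mice and 7.40 in controls, S100a8 by 5.11 and 5.68, Mptx1 by -8.15 and -3.78, Reg4 by -2.97 and -1.17, Clca1 by -4.54 and -2.22, Atoh1 by -1.79 and -0.47, Lgr5 by 1.53 and 0.49, and Ly6a by 0.80 and 0.64. For Reg4, Atoh1, Lgr5 and Ly6a the control groups overlapped. The goblet cell list had a median of -1.93 against -0.82, and the class II list -3.50 against -3.84. With 3 DSS controls, single mice decide several of these control values. Without DSS control mouse 3, a choice made after seeing the data, the control differences were -4.76 for Mptx1, -1.64 for Reg4, -0.95 for Atoh1 and 1.06 for Ly6a, the last 3 then without overlap, and the goblet median was -1.37. In the EGF family 4 of 11 genes were then higher, with a median of 0.28. Without DSS control mouse 2, Reg4 stood at -0.76, Atoh1 at -0.07, Lgr5 at 0.26 and the goblet median at -0.34. Without DSS control mouse 1, Mptx1 stood at -2.74, Ly6a at 0.37 and the EGF family median at 0.11. S100a8 ran from 4.32 without mouse 1 to 7.10 without mouse 3, on either side of the 5.11 of the labelled knockout mice. Fewer mice make separation easier. Phgr1, a glycine- and histidine-rich gut protein, was lower in the labelled knockout mice by 4.24, with DSS mouse 1 at 0.000169 and the others at 28.1 to 35.1 against 119 to 452 with water, and averaged 1.96 higher with overlap in controls. Most named genes were chosen for their separation in the labelled knockout mice, a choice that favours larger differences there than in controls. None of these differences between the 2 sets of mice was tested.

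**Figure D5:**
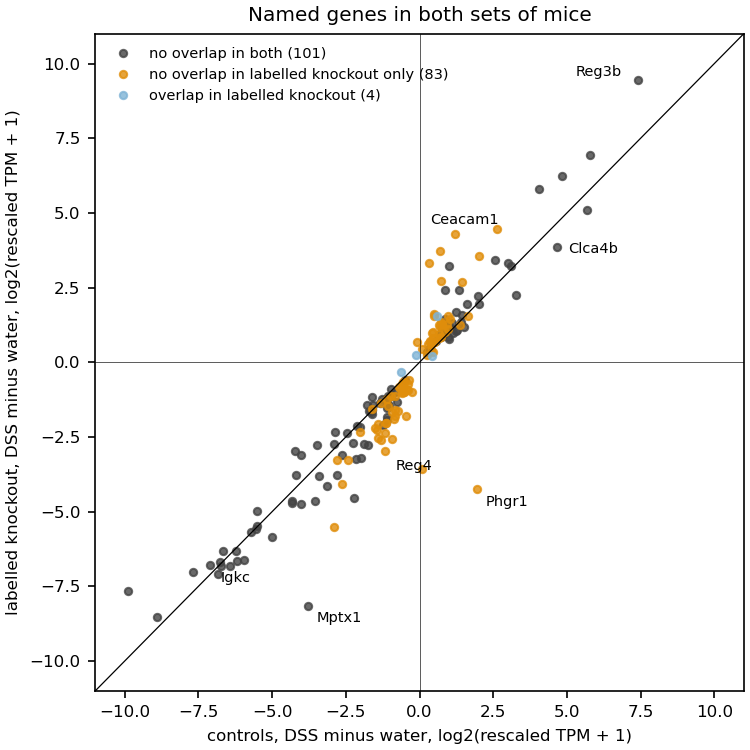
Difference DSS minus water on the log2(rescaled TPM + 1) scale for 188 named genes, controls on the horizontal axis and labelled knockout mice on the vertical axis, with the line of equal values. Of the genes, 101 did not overlap in both sets, and Mptx1 and Phgr1 lie farther below the line than most others. Most genes were named for their separation in the labelled knockout mice, so this count and the side of the line partly follow from that choice. Of all genes separated there, 36.1% of the higher and 47.0% of the lower were also separated in controls.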

How the data were processed

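PolyA RNA of EpCAM+ sorted distal colon cells was sequenced as stranded 75-base single reads. The authors quantified reads with kallisto and used sleuth, with build mm10 per the processing notes, and deposited TPM values per transcript in 1 table for each treatment, holding only principal isoforms. No column of fold changes or p-values was used, and 0 columns belonged to other samples. TPM keeps no depth, so precision rests on the spread between mice, and zeros are listed zeros. From 29373 rows per table, 385 repeated rows were dropped, and the TPM of 28988 transcripts was summed over 22396 gene symbols.

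Each mouse was divided by a median-of-ratios factor over 9936 genes above 0 in all 16 mice (1.17 to 1.19 for DSS, 0.905 to 0.940 for water). Genes needed a mean of at least 1 rescaled TPM, and log2 values had a pseudocount of 1. Groups came from GEO titles. No test compared the treatments, because the tables were normalized separately. Only whether the groups overlap is given, with mean, SD and SE. The count was tried on simulated data with 200 changed genes. Of genes changed by 1 log2 unit 86.0% were found, and of those changed by 2, 100%. In the real data 35.5% of the genes tested were separated. The trial therefore cannot decide how far the calls depend on the scaling, and no share of false calls is given.

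Named genes were 15 genes of the study, the 15 largest differences in each direction among separated genes (immunoglobulin, sex-linked and unnamed genes left out), and up to 3 separated members per list in its main direction with 1 in the other. The neutrophil markers other than S100a8, S100a9 and Il1b were added after their values were seen. The 58 lists, with 1683 of 1698 entries matched (24 by RefSeq synonym), and the mice compared were chosen with earlier results of these data known. Alternatives changed the scaling, the minimum level, the pseudocount, the mice and the transcripts used. Positions are from GENCODE M21 (GRCm38) and promoters from RefSeq. Values were computed with pandas 2.3.3 on Python 3.11.15.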

Additional observations from a re-analysis of the deposited data

Results flagged for a closer look

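Within each treatment, single mice stood apart from the rest of their group by Dixon's criterion in 26 of 338 groups of values checked. Chance alone gives about 1 in 20 where values are normally spread, which values near 0 are not. All values are on the log2(rescaled TPM + 1) scale. DSS mouse 1, the mouse of cage c, was high for Ly6a (8.70 against 7.80 to 7.89 in the others), for Krt8 (10.91 against at most 10.55), for the mean of the epithelial identity list (8.86 against 8.58 to 8.61) and of the glycolysis list (5.55 against 5.20 to 5.22), and low for fatty acid oxidation (4.29 against 4.36 to 4.37) and for Phgr1 (0.000244 against 4.86 to 5.17). The same mouse was high for the neutrophil genes Retnlg (4.89 against 3.41 to 3.64) and Ngp (1.51 against at most 0.19). DSS mouse 2 was low for heat shock proteins (5.56) and T cell genes (0.20). DSS mouse 3 was high for chemokines (3.81), macrophage genes (1.71) and Cd68 (2.13), and DSS mouse 4 low for MHC class II (0.85). Among water mice, mouse 1 was high for Retnla (7.69) and mouse 2, a male of cage a, was low for Lrig1 (1.95) and the EGF family (3.44) and high for Me1 (2.60). Mouse 3 was high for Dhx9 (0.0105), and mouse 4 for Taf9 (0.0115), Nfkbie (4.50) and TNF and NF-kB genes (4.40). The Dhx9 and Taf9 values lie at the floor, with the other water mice at no more than 0.00025 and 0.0035. Mouse 4 was low for Gclm (2.41), Cldn2 (5.11) and enteroendocrine genes (2.46), and mouse 5 was high for Hmox1 (6.84). None of these mice was left out of the reported values.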

How the results depend on the processing

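The split of separated genes into higher and lower moved with the scaling, and their number with the scaling, the minimum level, the mice and the transcripts used. A minimum mean of 5 gave 1423 higher and 1524 lower, and no minimum 2195 and 2186. In the values as deposited, 3526 genes were higher and 1134 lower, with 1173 higher and 725 lower by at least 1 log2 unit. By at least 1 log2 unit, 785 were higher and 809 lower with factors from the epithelial identity list, and 802 and 810 with quantile normalization. A pseudocount of 0.1 gave 645 and 1151, against 415 and 1010 as reported. By ranks within each mouse, 66.1% of the separated genes were higher. Requiring that at least 50% of the 31-base windows of the listed transcripts be absent from the gene's other transcripts, chosen after seeing the data, left fewer genes, with 1057 higher, 1039 lower, 180 higher and 547 lower by at least 1 log2 unit. Quantile normalization turned the direction of Aldoa (0.28), Car2 (0.12), Krt8 (0.71) and Lgals4 (0.42). The cause of these shifts was not tested. Of 184 separated named genes, ranks lost 15, and of 183 the values as deposited lost 18, quantile normalization 15 and factors from the epithelial identity list 6. Leaving other cell types and immunoglobulins out of the scaling lost 1 of 160. Leaving out 1 mouse at a time gave 2033 to 2217 genes higher and 2138 to 2364 lower, and females alone 2428 and 2567. Cage d against cage b, also chosen after seeing the data, gave 2720 and 2935. Fewer mice make separation easier, so these counts say nothing of stability. List medians moved by more than the SD between mice in 186 of 1181 values. No paired analysis was possible because the result comes from no test and no mouse or cage had both treatments. TPM gives no depth, so the error of low values is unknown.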
